A study of Saccharomyces cerevisiae with 6 samples.

Results

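The genes of glycine cleavage and one-carbon metabolism described here are 10 rows of a yeast gene count table that holds 7126 gene rows: GCV1, GCV2, GCV3, LPD1, SHM1, SHM2, MTD1, MIS1, ADE3 and BAS1. They were picked by name, with their levels in both strains already known, so their differences between the strains are given as a description, without a test. Poly(A)-selected RNA of the budding yeast Saccharomyces cerevisiae was sequenced from 2 strains of the S288C background. The R256C strain carries an actin in which arginine is replaced by cysteine, and the WT strain is its comparison. Each strain gave 3 libraries, labelled as biological replicates, from untreated cultures grown in rich medium (YPD) at 30 °C to an optical density of 0.9. The comparison asks what the substitution goes with in the transcriptome. How many independent isolates stand behind each genotype was not stated in the material used, so effects of other strain differences and of the substitution cannot be told apart.

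Folate carries single carbon groups between serine, glycine, purines, thymidylate and methionine. In yeast mitochondria the glycine cleavage system breaks glycine down to carbon dioxide and ammonia and leaves a methylene group on tetrahydrofolate. Its parts are the T protein (GCV1), the P protein (GCV2), the lipoate-bearing H protein (GCV3) and dihydrolipoamide dehydrogenase (LPD1), which also serves the pyruvate and 2-oxoglutarate dehydrogenases. Serine hydroxymethyltransferases (SHM1 in mitochondria, SHM2 in the cytosol) interconvert serine and glycine, and folate-interconverting enzymes (MIS1 in mitochondria, ADE3 and MTD1 in the cytosol) pass the carbon on. BAS1 encodes a Myb-type transcription factor that acts with Pho2 on genes of purine synthesis, histidine synthesis, glycine cleavage and the cytosolic folate enzymes.

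Reads counted in genes ranged from 8967232 to 16905818 per library, and a member held between 499 reads (GCV2 in R256C replicate 3) and 34969 reads (SHM2 in WT replicate 2). Levels are given as CPM, counts scaled to library size with TMM factors. In such bulk RNA, less of a transcript per cell and fewer cells that hold it cannot be told apart. Correlations of log2 CPM were at least 0.992 within R256C and at least 0.976 within WT, where WT replicate 2 stood apart and is followed below. The actin gene ACT1 was at 1354, 1373 and 1404 CPM in R256C replicates 1, 2 and 3, against 1512, 2094 and 1608 CPM in WT (log2 fold change -0.34, SE 0.161, edgeR adjusted p = 0.124). Gene counts do not show the substituted base, so they did not check the genotype labels. The labels name no batch or date.

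The 10 genes lie on chromosomes I, II, IV, VI, VII, XI, XII and XIII, each with 1 coding exon, and none overlaps another annotated gene on either strand (R64). SHM1 and MIS1 share chromosome II and MTD1 and BAS1 share chromosome XI. The stretch from 250 bases before to 50 bases into each coding sequence was searched on both strands for TGACTC, the core bound by Bas1. It was found in 7 of the 10 genes (GCV1, GCV2, GCV3, LPD1, SHM2, MTD1 and ADE3), while 479 of 6020 windows of coding genes held it (7.96%). SHM1, MIS1 and BAS1 had no match there or within 500 bases upstream. The longer TGACTCA, bound by Gcn4 and holding the shorter core within it, was in LPD1 and MTD1, and in 2.72% of all windows. A match describes the letters and does not show that a factor binds.

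GCV2 had 4 cores within 500 bases, of which 1 lay in the shorter window and 2 abut in opposite orientation. SHM2 also had 4, of which the outer 2, not printed, lie inside the neighbouring gene REX2; every other core of these genes lies between genes. The stretches are shown from 5′ to 3′ on the strand of the gene, to let the spacing and the flanks be compared, with the core or its reverse complement in capitals. Positions count back from the first base of the start codon.
GCV2, chrXIII:637197-637278, plus strand: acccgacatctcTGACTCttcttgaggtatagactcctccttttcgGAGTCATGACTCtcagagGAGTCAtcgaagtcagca
GCV1, chrIV:485491-485520, minus strand, core at -143 to -138: gctcaggagcccTGACTCgtgttgcctcga
GCV3, chrI:58558-58587, minus strand, core at -113 to -108: cacttccgtaagGAGTCAttcagcggcgga
GCV3, chrI:58542-58571, minus strand, core at -97 to -92: cattcagcggcgGAGTCActttcgctaact
LPD1, chrVI:103357-103386, minus strand, core at -247 to -242: cgtttttaatgaTGACTCgtttttagaata
LPD1, chrVI:103224-103253, minus strand, core at -114 to -109: attcgtacccttTGACTCacctcgaatata
SHM2, chrXII:259661-259690, minus strand, core at -277 to -272: acacacgaaacaTGACTCctggtgagaaat
SHM2, chrXII:259611-259640, minus strand, core at -227 to -222: accataaaggttTGACTCtatctcttgggt
MTD1, chrXI:590103-590132, plus strand, core at -280 to -275: ctctttttggcgGAGTCAgcccgaatcaac
MTD1, chrXI:590209-590238, plus strand, core at -174 to -169: attatgatatatTGACTCagtagaaaagga
ADE3, chrVII:905709-905738, plus strand, core at -213 to -208: atatatttgccaTGACTCctcccagtgaca

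A second element, CATC and CTTCTT with 7 bases between them, has been described in the glycine response of the GCV genes. It matched GCV1 in the shorter window and GCV2 as well within 500 bases, against 0.133% of shorter and 0.366% of longer windows of coding genes. CTTCTT alone was common, in 35.9% of the shorter windows, GCV1, SHM2 and MTD1 among them. In GCV2 the spaced element runs through the outermost Bas1 core. The capitals mark its fixed letters.
GCV1, chrIV:485531-485559, minus strand: tttgttCATCgccgtgaCTTCTTtcggca
GCV2, chrXIII:637197-637225, plus strand: acccgaCATCtctgactCTTCTTgaggta

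SHM1 is shown for contrast, as 300 bases with no capitals, because neither TGACTC nor CTTCTT matched in it. MIS1 and BAS1, not printed, had neither match in this window as well, and both were lower in R256C. Farther upstream SHM1 has a CTTCTT at -395 to -390.
SHM1, chrII:736014-736313, plus strand: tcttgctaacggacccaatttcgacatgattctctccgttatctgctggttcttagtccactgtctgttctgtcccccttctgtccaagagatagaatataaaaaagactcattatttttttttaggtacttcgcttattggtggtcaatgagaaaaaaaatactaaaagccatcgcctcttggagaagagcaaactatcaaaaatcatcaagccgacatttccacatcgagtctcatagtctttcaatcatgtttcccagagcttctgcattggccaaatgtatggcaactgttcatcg

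**Figure D1:**
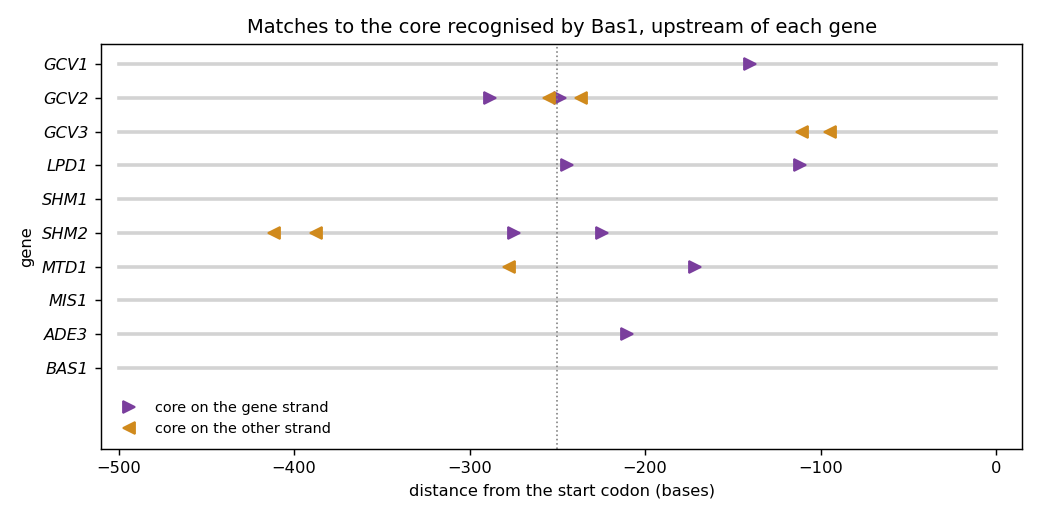
Position of each match to the Bas1 core upstream of the 10 genes, in bases from the start codon. Triangles pointing right are on the strand of the gene, those pointing left on the other strand, and the dotted line marks 250 bases. GCV2 and SHM2 have 4 matches each, and SHM1, MIS1 and BAS1 have none.

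Transcripts of the 3 proteins particular to glycine cleavage were all lower in R256C, and GCV2 differed by the widest margin of the 10 genes. GCV2 (YMR189W, chromosome XIII, 637500 to 640604), the decarboxylating P protein, was at 65.3, 55.1 and 53.9 CPM in R256C replicates 1, 2 and 3, against 248 CPM, 219 CPM and 222.5 CPM in WT. Every R256C library lay far below every WT library, and neither strain spread widely. The means were 58.1 ± 6.27 CPM in R256C and 230.0 ± 15.9 CPM in WT (SD, n = 3 each), a log2 fold change of -1.98 (SE 0.108) or 3.96-fold lower. GCV2 is also the longest of the 10 at 3105 bp. In these libraries longer genes were on the whole slightly lower in R256C (Spearman rho -0.118 of log2 fold change and length over 5814 genes; genes are not independent of each other), and with each library's trend on gene length taken off GCV2 was at -1.79.

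GCV3 (YAL044C, chromosome I, 57950 to 58462), the H protein that carries the lipoate arm, was at 121.3, 136.7 and 121.1 CPM in R256C, against 263.4, 346.3 and 270.0 CPM in WT. The groups did not overlap, and WT replicate 2 was the highest library. Its log2 fold change was -1.21 (SE 0.126), or 2.32-fold lower. GCV1 (YDR019C, chromosome IV, 484163 to 485365), the aminomethyltransferase or T protein, was at 95.65, 101.0 and 90.9 CPM in R256C, against 194.7, 248.3 and 182.2 CPM in WT. The pattern was that of GCV3, with WT replicate 2 again highest, and the log2 fold change was -1.12 (SE 0.126). Summed over the 3 genes the level was 280.3 ± 13.5 CPM in R256C and 732 ± 72.8 CPM in WT.

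LPD1 (YFL018C, chromosome VI, 101628 to 103127), the L protein that glycine cleavage shares with other complexes, differed by less. It was at 364.9, 406.1 and 375.4 CPM in R256C, against 582.4, 650.4 and 576.0 CPM in WT. The strains did not overlap, and the log2 fold change was -0.66 (SE 0.11), or 1.58-fold lower.

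The serine hydroxymethyltransferase genes differed in direction. SHM2 (YLR058C, chromosome XII, 257992 to 259401), the cytosolic enzyme, was at 868 CPM, 1054 CPM and 880.0 CPM in R256C, against 1452, 2300 and 1379 CPM in WT. All R256C libraries lay below WT, and WT replicate 2 stood well above its fellows. The means were 934 ± 104 CPM in R256C and 1710 ± 512 CPM in WT, with a log2 fold change of -0.87 (SE 0.215), which was -0.60 without WT replicate 2. SHM1 (YBR263W, chromosome II, 736264 to 737736), the mitochondrial enzyme, was at 838, 846 and 812 CPM in R256C, against 738, 761 and 696 CPM in WT. It was the one gene of the 10 that was higher in R256C in every library, by a small margin (log2 fold change 0.19, SE 0.112). The proteins encoded by SHM1 and SHM2 (490 and 469 residues, translated from the R64 coding sequences) are identical at 280 of 467 aligned positions.

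All 3 genes that interconvert folate-bound carbon were lower in R256C. ADE3 (YGR204W, chromosome VII, 905934 to 908774), the cytosolic trifunctional synthase, was at 865, 832 and 816 CPM in R256C, against 1185, 1291 and 1128 CPM in WT (log2 fold change -0.52, SE 0.123). MIS1 (YBR084W, chromosome II, 411054 to 413981), its mitochondrial counterpart with 72.1% identity over 938 aligned residues, was at 288.2, 245.6 and 286.6 CPM in R256C, against 389.2, 421.0 and 428.6 CPM in WT (-0.60, SE 0.106). Neither gene overlapped between the strains. ADE3 and MIS1 are also long (2841 and 2928 bp), and with the length trend taken off they were at -0.38 and -0.44.

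MTD1 (YKR080W, chromosome XI, 590395 to 591357), the cytosolic dehydrogenase that uses NAD, was at 97.2, 109 and 102 CPM in R256C, against 134, 271 and 145 CPM in WT. Its R256C libraries lay close together, and WT replicate 2 was far above the other WT libraries, which were nearer to R256C. The log2 fold change was -0.84 (SE 0.243) with all libraries and -0.45 without WT replicate 2. MTD1 aligns with part of each larger enzyme, with 33.3% identity to MIS1 over 267 residues and 30.7% identity to ADE3 over 270 residues.

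BAS1 (YKR099W, chromosome XI, 635851 to 638286), the regulator, was at 129.9, 105.4 and 121.1 CPM in R256C, against 197.9, 186.2 and 229.1 CPM in WT. The strains did not overlap, and WT replicate 2 was here the lowest WT library. The log2 fold change was -0.78 (SE 0.115), or 1.72-fold lower.

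**Figure D2:**
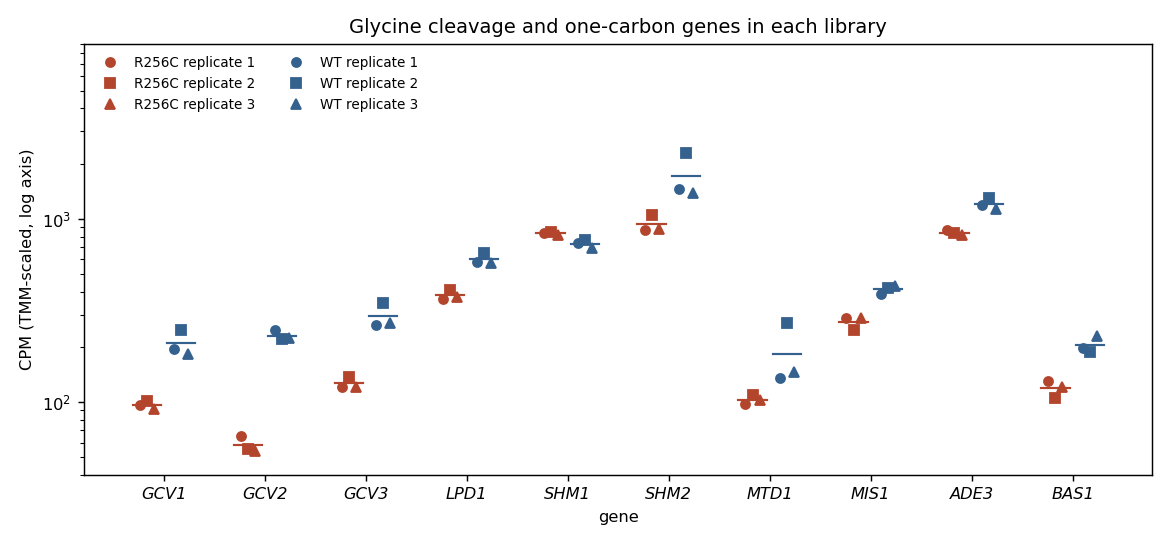
CPM of each gene in every library on a log axis, with R256C in red on the left of each pair and WT in blue on the right; horizontal bars are means and marker shapes give the replicate number. In 9 genes every R256C library is below every WT library, and in SHM1 every R256C library is above.

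Over the 10 genes the median log2 fold change was -0.81, where that of the 6337 genes tested was -0.01, and 5.18% of those genes were at or below the median of the 10. All 10 passed the filter on low counts. In 9 of them the R256C libraries all lay below WT, as in 27.3% of all tested genes, and in 1 they all lay above, as in 27.7%. With Benjamini-Hochberg adjustment over all tested genes and a threshold of 0.05 in edgeR's quasi-likelihood test, 9 members were called lower and SHM1 was not called, against 21.4% of tested genes called lower and 21.2% called higher. The 10 genes were chosen with this contrast known, so nothing is read from these counts. The calls of MTD1, SHM2 and ADE3 were the ones lost when a library of R256C was left out: 6 to 7 were then called lower. The 7 genes with a Bas1 core had log2 fold changes between -0.52 and -1.98. The 3 without one were at 0.19 (SHM1), -0.60 (MIS1) and -0.78 (BAS1). These are the values the members were chosen on, and a link with the core was not tested.

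**Figure D3:**
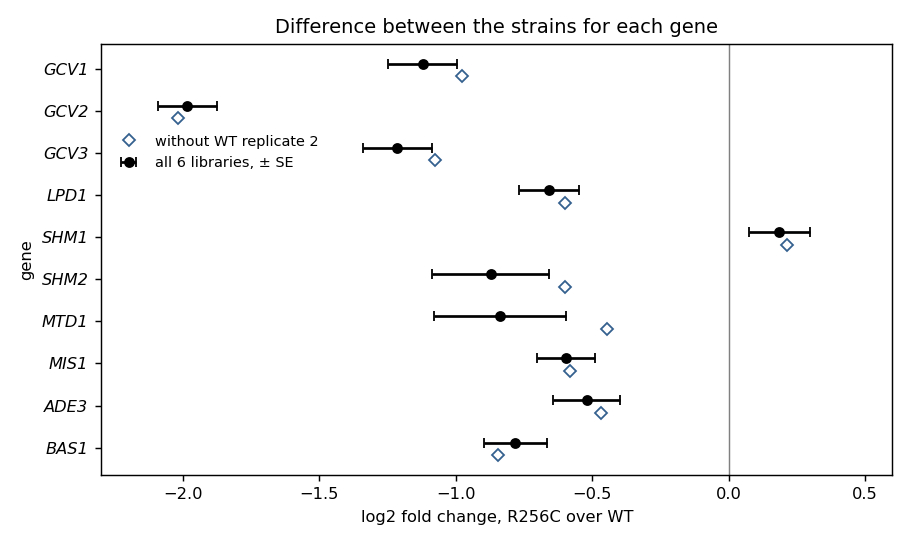
Log2 fold change of R256C over WT for each gene, with all 6 libraries (filled circles, bars are SE) and without WT replicate 2 (open diamonds). GCV2 lies farthest below 0 at -1.98 and SHM1 above 0 at 0.19, and leaving out WT replicate 2 moves MTD1 to -0.45 and SHM2 to -0.60.

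WT replicate 2 affected the members unequally. Against the mean of the other WT libraries on the log2 CPM scale it was higher by 0.95 in MTD1 and 0.70 in SHM2, where the 5% and 95% quantiles of all tested genes were -0.76 and 0.67. The deviation was 0.40 in GCV1 and 0.38 in GCV3, within that range. It was small in SHM1 (0.09), MIS1 (0.04) and GCV2 (-0.10), and BAS1 went the other way at -0.19. Within R256C no member deviated by more than 0.27 in any library. SHM2 was the member at 0.27, in R256C replicate 2.

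Divided by gene length, the levels in WT spread over more than an order of magnitude. SHM2 stood first at 1213 ± 363 CPM per kilobase, GCV3 next at 572 ± 89.8 and SHM1 at 497 ± 22.5 (SD, n = 3). ADE3 at 423 ± 29.0 and LPD1 at 402 ± 27.5 CPM per kilobase followed, then MTD1 at 190.5 ± 78.6 and GCV1 at 173 ± 29.2. MIS1 at 141 ± 7.14, BAS1 at 83.9 ± 9.09 and GCV2 at 74.1 ± 5.12 CPM per kilobase came last. The ranges over the WT libraries overlapped between GCV3 and SHM1, ADE3 and LPD1, MTD1 and GCV1, and BAS1 and GCV2. Within each WT library GCV3 was nevertheless above SHM1, ADE3 above LPD1 and BAS1 above GCV2 (3 of 3), whereas MTD1 was above GCV1 in 1 of 3. Scaling by library totals gave the same order. In R256C, GCV3 took the fifth place at 246.3 ± 17.5 CPM per kilobase, behind SHM2 (663 ± 73.9), SHM1 (565 ± 12.1), ADE3 (295 ± 8.72) and LPD1 (255 ± 14.3). The R256C ranges of LPD1 and GCV3 overlapped, as did those of GCV1 and MIS1. GCV2 was last there too, at 18.7 ± 2.02 CPM per kilobase.

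Ratios between members, taken per kilobase in each library, show which of them kept step. GCV3 to GCV1 was 3.09 ± 0.105 in R256C and 3.31 ± 0.154 in WT. The libraries overlapped only narrowly (2.97 to 3.175 in R256C and 3.172 to 3.475 in WT). GCV2 to GCV1 was lower, at 0.265, 0.212 and 0.23 in R256C replicates 1, 2 and 3, against 0.494, 0.342 and 0.473 in WT, with no overlap. LPD1 to GCV1 was 3.20 ± 0.128 in R256C and 2.345 ± 0.222 in WT.

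The mitochondrial share differed between the enzyme pairs. SHM1 made up 48.0%, 43.4% and 46.9% of SHM1 plus SHM2 in R256C replicates 1, 2 and 3, against 32.7%, 24.0% and 32.6% in WT, so the strains did not overlap. MIS1 made up 24.0 ± 1.61% of MIS1 plus ADE3 in R256C and 25.0 ± 1.64% in WT, and the libraries of both strains overlapped. These ratios come from the same contrast that the genes were chosen on and are given without a test.

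**Figure D4:**
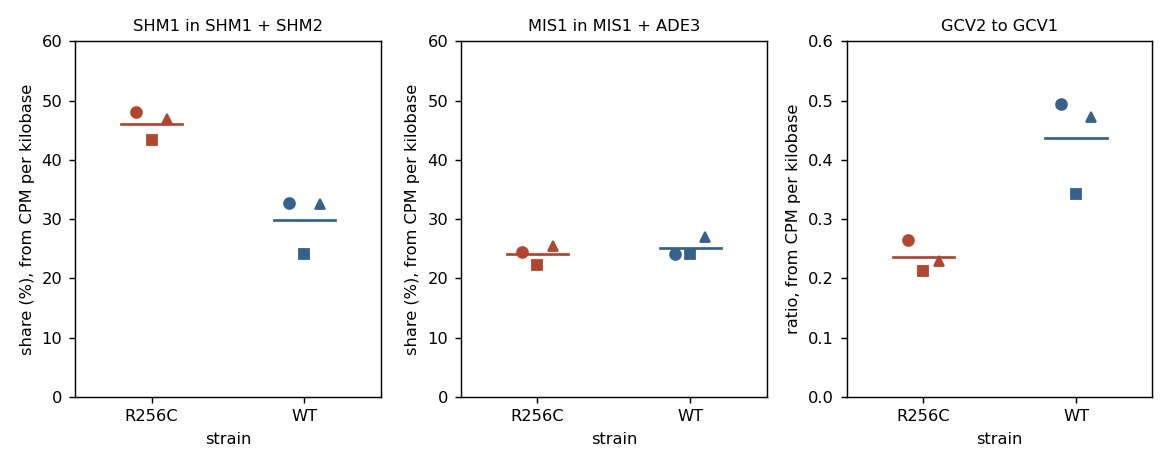
Shares and a ratio between members in each library, from CPM per kilobase, with R256C left of WT, bars for means and a marker shape for each replicate number (circle 1, square 2, triangle 3). SHM1's share is higher in each R256C library, MIS1's share overlaps between the strains, and GCV2 to GCV1 is lower in each R256C library.

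Genes around the pathway were followed in 5 lists with 68 distinct genes, all tested by edgeR's quasi-likelihood test with adjustment over all tested genes. The lists were chosen with earlier results of these data known, so their counts are given as a description. Of the 68 genes 13 rose and 19 fell in R256C, where 21.2% of all tested genes were called higher and 21.4% lower. The lists differed in direction. The genes ADE8, ADE16 and ADE17 stand in both the folate list and the regulon list, and all 3 fell, so they are counted in both. Their log2 fold changes were -0.24, -0.38 and -0.80 (edgeR adjusted p = 0.0490, 0.0244 and 0.0235 in that order), so ADE8 passed only narrowly. Serine and glycine supply did not move one way: of 8 genes 2 rose, 4 fell and 2 did not pass (median log2 fold change -0.26, all tested genes -0.01). SER2, the phosphatase that completes serine synthesis, was at 81.5 ± 1.08 CPM in R256C and 143.6 ± 37.2 CPM in WT (log2 fold change -0.82, SE 0.164, edgeR adjusted p = 0.00482). CHA1, which breaks down serine and threonine, fell by 0.65 (adjusted p = 0.0269), a call lost without any one R256C library or WT replicate 3 (0.0524 to 0.105, and 0.00250 to 0.105 over all 15 alternatives). Those that rose were SER3 (0.52, adjusted p = 0.00160), a phosphoglycerate dehydrogenase of serine synthesis, and AGX1 (0.62, adjusted p = 0.00534), which makes glycine from glyoxylate. SER3 has a close relative, SER33, and overlaps the noncoding SRG1 by 77 bases. Some of its reads may therefore have been left out as placed at several loci or as ambiguous. When an R256C library was left out, 1 gene of this list fell instead of 4.

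Of 19 genes listed under folate synthesis and one-carbon use, 8 fell, 1 rose and 10 did not pass (median -0.16). FLX1, a transporter gene and not one of a folate enzyme, is counted among those that fell. Over all tested genes 21.4% were called lower and 21.2% higher. MET6, the methionine synthase that takes a methyl group from folate, was at 206.8, 192.2 and 193.9 CPM in R256C replicates 1, 2 and 3, against 565.3, 594.5 and 538.4 CPM in WT. It was about as far from WT in each library, with a log2 fold change of -1.52 (SE 0.0997, edgeR adjusted p = 3.0e-05). CDC21, the thymidylate synthase, fell by 1.04 on the log2 scale (29.2 ± 2.37 CPM in R256C and 59.9 ± 6.05 CPM in WT, adjusted p = 2.8e-04). FMT1, which formylates the mitochondrial initiator tRNA, fell by 0.66 (adjusted p = 0.00653). FOL1, an enzyme of folate synthesis, rose by 0.39 (adjusted p = 0.00851). Without WT replicate 2 there were 15 calls in this list, of which 5 rose, and 4 to 5 calls without WT replicate 3 or any one R256C library.

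Of 15 genes of the Bas1 and Pho2 regulon outside the members, 9 fell, 1 rose and 5 did not pass (median -0.47), where 21.4% of all tested genes were called lower. In 12 of the 15 all R256C libraries lay below WT, as in 27.3% of all tested genes. The list includes PHO2, which encodes the regulator itself, and its value is the list median. PHO2 is counted among the genes that fell and among those with all R256C libraries below WT. ADE6, of purine synthesis, was at 407.1, 411.8 and 389.8 CPM in R256C, against 1152, 1197 and 1161 CPM in WT. Both strains were tight and far apart (log2 fold change -1.54, SE 0.113, edgeR adjusted p = 4.5e-05). With each library's trend on gene length taken off ADE6 was at -1.21. ADE5,7 (written ADE57 in the annotation), with 2 activities of the same pathway in 1 protein, fell by 1.00 (adjusted p = 8.3e-04), and HIS7 of histidine synthesis fell by 0.90 (adjusted p = 1.8e-04). PHO2, the partner of Bas1, was at 67.6 ± 2.93 CPM in R256C and 93.8 ± 13.9 CPM in WT (-0.47, adjusted p = 0.0132), a call lost with library totals (0.0718) and without R256C replicate 3 (0.0551), with 7.4e-05 to 0.0718 over the 15 alternatives. GLN1, glutamine synthetase, went against the list and rose to 2040, 2071 and 1862 CPM in R256C, against 502, 920 and 527 CPM in WT (log2 fold change 1.62, SE 0.239, adjusted p = 0.00111). In this list 6 genes were called without R256C replicate 3.

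The other lists were not lower. Of 10 genes for lipoate attachment and for the complexes that share LPD1, 3 rose and 7 did not pass (median 0.33), a share near the 21.2% of all tested genes called higher. Those that rose were LIP2, a lipoyltransferase (0.90, adjusted p = 0.00176), and the 2-oxoglutarate dehydrogenase subunits KGD1 (0.56, adjusted p = 0.00601) and KGD2 (0.65, adjusted p = 0.0116). KGD2 did not pass without R256C replicate 2 (0.0563) or WT replicate 3 (0.0518), with 5.1e-06 to 0.0563 over the 15 alternatives. In this list 6 genes rose without WT replicate 2 or with scaling by library totals. Of 19 genes of general amino acid control, 6 rose, 1 fell and 12 did not pass (median 0.11), where 21.2% of all tested genes were called higher. GCN4, the activator of that system, was at 775 ± 49.9 CPM in R256C and 424 ± 74.7 CPM in WT (log2 fold change 0.87, SE 0.147, edgeR adjusted p = 0.00212). ARO3 (1.02), LEU4 (0.92) and ARG1 (0.83), of aromatic amino acid, leucine and arginine synthesis, rose too (edgeR adjusted p = 9.5e-05, 2.4e-04 and 6.8e-04 in that order). TRP5, of tryptophan synthesis, fell by 0.37 (adjusted p = 0.0310), a call lost without WT replicate 3, without any one R256C library and with library totals (0.0592 to 0.136, and 0.00805 to 0.136 over the 15 alternatives). Without WT replicate 2, 10 genes of this list rose.

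TGACTC, the Bas1 core, was in the shorter window of 10 of the 15 regulon genes and 10 of the 19 genes of general amino acid control. It was in 6 of the 19 folate genes, 3 of the 8 serine and glycine genes and 3 of the 10 genes around LPD1. Among the windows of all coding genes 7.96% held it. TGACTC also lies within TGACTCA, bound by Gcn4, and how many of these matches were TGACTCA was not counted. Counts with and without a core were also taken over all tested coding genes outside the 10 members, the list genes included. Of 464 genes with a core 19.0% fell and 22.0% rose (median -0.02), and of 5325 without one 23.0% fell and 20.3% rose (median -0.03).

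**Figure D5:**
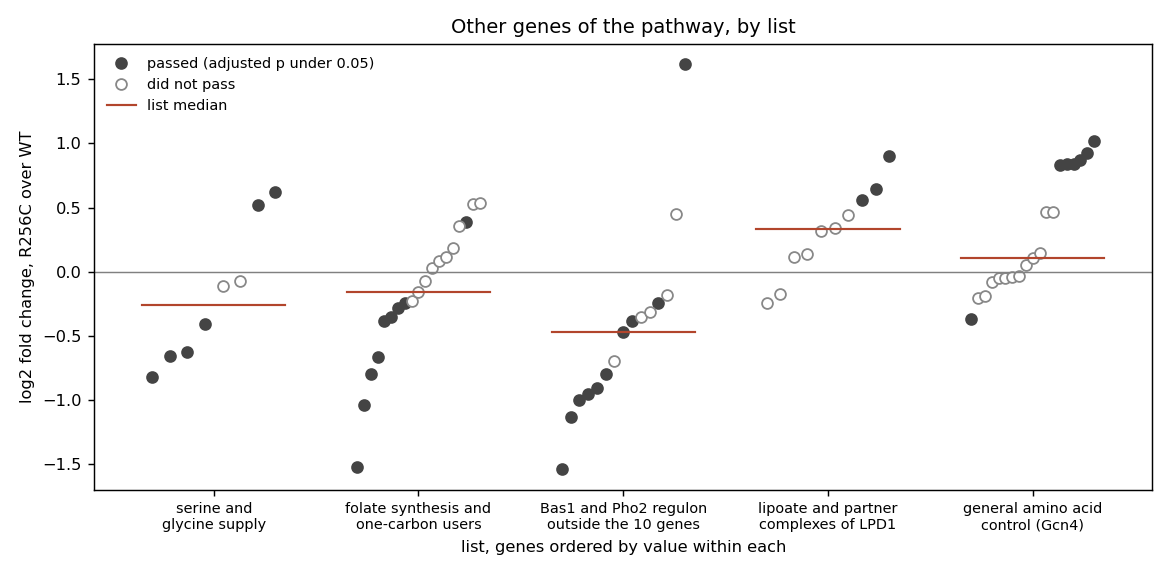
Log2 fold change of R256C over WT for the genes of 5 lists around the pathway, ordered by value within each list; filled points passed at an adjusted p under 0.05 and red bars are medians. The medians run from -0.47 in the Bas1 and Pho2 regulon to 0.33 around LPD1, and GLN1 lies at the top of the regulon at 1.62.

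The genes nearest to GCV2 in pattern were found by the root-mean-square difference of log2 CPM, each gene centred on its mean over the 6 libraries, among 5489 genes with a mean of at least 10 CPM. They were POL1 (0.137), the catalytic subunit of DNA polymerase alpha, RRT5 (0.14), SPO19 (0.159), a gene of spore formation, PDS5 (0.181), a cohesin-associated factor, and RNR1 (0.185), the large subunit of ribonucleotide reductase. The members stood farther from GCV2: 75 of those genes were nearer to it than GCV3 (0.442), and 101 were nearer than GCV1 (0.479). The centring keeps the difference between the strains, so nearness here largely reflects a like log2 fold change in the contrast the members were chosen on. The genes named as nearest were between -2.13 (SPO19) and -1.74 (PDS5), beside -1.98 in GCV2, -1.21 in GCV3 and -1.12 in GCV1.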

How the data were processed

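RNA levels were measured in 6 poly(A)-selected libraries, 3 of R256C and 3 of WT, grouped by their titles. The authors deposited raw counts, 1 whole number per gene and library. The submitters' processing notes name TopHat, HTSeq, DESeq and build R64; their versions, settings and use of strand: not given in the sources used here. The reference annotation used here is also R64 and matched 6048 of 7126 gene rows. Summary rows of the counter that name no gene were left out: alignments placed at several loci were 53.1% to 57.2% of a library's column total, reads outside genes 1.46% to 1.82% and ambiguous reads 3.18% to 3.77%. Of the columns of per-library values, 0 were left unused.

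Counts were filtered with filterByExpr (6337 genes), scaled by TMM and tested with edgeR 4.0.16 (R 4.3.3, quasi-likelihood F test, 1 genotype term), with Benjamini-Hochberg adjustment and a threshold of 0.05. SE is the log2 fold change over the root of F. Log2 CPM used a prior count of 2. The common biological coefficient of variation was 0.133. No 2 libraries were alike within counting error (chi-square over degrees of freedom at least 7.03). Scripts were tested on simulated data.

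Members and lists were chosen with earlier results of these data known. Named genes were the 10 members; up to 4 called genes of each list with the smallest p, with any called gene that moved against its list; PHO2 and GCN4; and the 5 genes nearest to GCV2. The values of 1 gene under this rule are not reported here. Alternatives were DESeq2 1.42.0, limma-voom (limma 3.58.1), DESeq2 size factors, library totals, no filter, 10 CPM in 3 libraries, each library left out, an offset for gene length, and the replicate number as a block. Promoter windows and proteins were read from the R64 reference (RefSeq), with proteins aligned end to end with BLOSUM62.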

Additional observations from a re-analysis of the deposited data

How the results depend on the processing

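Under the 15 alternatives none of the 10 members changed the sign of its log2 fold change. GCV2 ranged from -2.08 to -1.79, GCV3 from -1.29 to -1.08, GCV1 from -1.21 to -0.98 and SHM1 from 0.14 to 0.28. The members' median was -0.60 without WT replicate 2, and -0.89 to -0.60 over all libraries left out in turn, with 6 to 9 members called lower and 0 to 1 higher (SHM1, without WT replicate 2).

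Scaling by library totals gave 886 genes that fell, with 64.9% of calls higher instead of 49.8%, and moved the median of all genes to 0.09. Around LPD1 it gave 6 calls, and a filter at 10 CPM gave 5. Leaving out 1 library gave 876 to 1875 genes that rose and 822 to 1884 that fell. Calls per list were then 3 to 6 for serine and glycine supply, 4 to 15 for folate, 6 to 12 for the regulon, 2 to 6 around LPD1 and 6 to 11 for amino acid control; the cause was not tested. Windows of 500 bases held TGACTC in 12.6%, TGACTCA in 3.99%, CTTCTT in 52.7% and the spaced element in 0.366% of coding genes, being longer.

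Same-numbered libraries did not deviate together (correlations -0.12, -0.07 and -0.06). No shared effect of the replicate number was seen, but this cannot tell whether the cultures were paired by design. With the replicate block 1217 genes rose and 1214 fell, and the members' median was -0.77; with the block and the length offset together ADE3 was not called. The fit without 1 library rests on fewer samples, and 3 cultures per strain limit every SE.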
